A study of Mus musculus with 8 samples.

Results

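The genes described here move proteins into mitochondria, fold them there and degrade them. The members were taken by name from the normalized expression table: every gene symbol starting with Timm or Tomm, together with *Hspd1*, *Hspe1*, *Hspa9*, *Trap1*, *Lonp1*, *Clpp*, *Clpx*, *Yme1l1*, *Afg3l2* and *Spg7*, leaving out pseudogenes and antisense names. This gave 36 genes with 70 probes, of 26894 genes named on the array. For each gene, the probe with the highest mean over the 8 arrays was used, and its other probes were compared with it afterwards. Of the 36 genes, 35 could be tested, and the probes of all 35 were well above background on all 8 arrays. The remaining gene, *Timm8a2*, a relative of *Timm8a1*, was well above background on none of the arrays.

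Most mitochondrial proteins are encoded in the nucleus and made in the cytosol. They enter through the TOM complex of the outer membrane, and are then sorted by the TIM23 complex to the matrix or inner membrane, or carried by small TIM chaperones to the TIM22 complex, which inserts carrier proteins such as UCP2 itself. In the matrix, the motor protein mortalin (*Hspa9*) pulls the chain in, the HSP60 and HSP10 chaperonin (*Hspd1* and *Hspe1*) folds it, and proteases such as LONP1 and CLPXP remove damaged proteins. Transport through TIM23 depends on the membrane potential of the inner membrane, and several of these chaperone and protease genes are known targets of the mitochondrial unfolded protein response.

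The RNA came from handpicked pancreatic islets of male βUCP2Tg mice (4 samples) and male WT littermates (4 samples), all kept for 8 h in medium with 200 mg/dL glucose. βUCP2Tg mice carry a mouse *Ucp2* cDNA under a rat insulin promoter, which acts in β-cells, on a C57BL/6J background. Neither the labels nor the methods say how many founder lines were used, and WT mice lack the transgene. The methods give an age of 8 to 12 weeks for islet isolation, and the labels give none for these samples. Neither the labels nor the methods say whether a sample is 1 mouse or a pool, so that errors and p-values describe the spread between samples.

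Each sample had its own one-colour Agilent array. Values below are log2 signals scaled to each array, called normalized log2 signals, and differences are βUCP2Tg minus WT on that scale. A probe was called at a Benjamini-Hochberg adjusted p under 0.05, over the 35363 probes tested with limma, and a fold change over 1.5. *Ucp2* stood at 7.38 ± 0.31 in βUCP2Tg and 1.15 ± 0.23 in WT (mean ± SD, n = 4), a difference of 6.24 with an adjusted p of 9.32e-06, so the arrays matched their labels. All 10 listed β-cell markers were measured, and their mean lay between 5.07 and 5.41 on the βUCP2Tg arrays and between 5.04 and 5.56 on the WT arrays. Of these, 1 (*Mafa*, at -0.34) was lower without overlap (7.17% of all probes). The mean of 5 α-cell markers ran from 3.56 to 3.67 in βUCP2Tg and from 3.27 to 3.45 in WT, without overlap. Their summed signal overlapped. For 9 macrophage markers the mean overlapped, and log2 of the summed signal ran from 4.01 to 4.33 and from 4.37 to 4.73. The means of the delta and PP, duct and stellate, and endothelium lists overlapped. Of 22 acinar markers, 21 were measured and all 21 had a lower mean in βUCP2Tg. Their mean per array ran from -1.18 to 2.93 in βUCP2Tg and from -0.61 to 3.54 in WT. Log2 of their summed signal ran from 4.37 to 8.43 and from 5.10 to 9.12. The remaining marker, *Ptf1a*, was not well above background, so it gives no reading of acinar content. The mean of 18 hypoxia response genes was 1.35, 1.30, 1.33 and 2.61 on βUCP2Tg arrays 1 to 4, against 2.12, 3.04, 3.03 and 3.05 on WT arrays 1 to 4. Thus βUCP2Tg 4 and WT 1 stood apart from the other arrays of their genotype in that list. In whole islets, fewer cells of a type and less RNA per cell cannot be told apart. The WT arrays filled one row of the slide and the βUCP2Tg arrays the other, so position and genotype cannot be told apart either.

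None of the 35 import, chaperone and protease genes passed the test. Of all 35363 probes, 0.206% passed with a higher and 0.204% with a lower signal (0.41% in all). The largest difference was that of *Lonp1*, at -0.52, which is 1.43-fold, and the smallest adjusted p was that of *Timm8a1*, at 0.057. The median difference of the 35 genes was -0.0027, beside a median of -0.023 for all probes, with 17 genes above zero and 18 below. The difference was under 1.25-fold in 31 of 35 genes (88.6%), compared with 65.4% of all probes, and at 22 of the 29 other tested probes of these genes (75.9%). For 30 of the 35 genes, the 95% confidence interval of the difference, which is not adjusted for the number of genes, lay within 1.5-fold in either direction. The other 5 genes were *Clpx*, *Hspe1*, *Lonp1*, *Timm21* and *Timm8a1*. An unadjusted p under 0.05 was found for 7 of the 35 genes (20%), compared with 25.2% of all probes. It was found for 3 higher genes (9.99% of all probes) and 4 lower genes (15.2% of all probes). The signals of βUCP2Tg and WT did not overlap for 5 genes (14.3%), compared with 12.4% of all probes. The 5 were *Tomm34*, which was higher in βUCP2Tg (5.25% of all probes), and *Timm8a1*, *Lonp1*, *Clpx* and *Tomm20*, which were lower (7.17% of all probes). Both shares were thus near those of the array as a whole. At the other tested probes, 9 of 29 (31.0%) had an unadjusted p under 0.05 and 4 of 29 (13.8%) had no overlap.

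**Figure D1:**
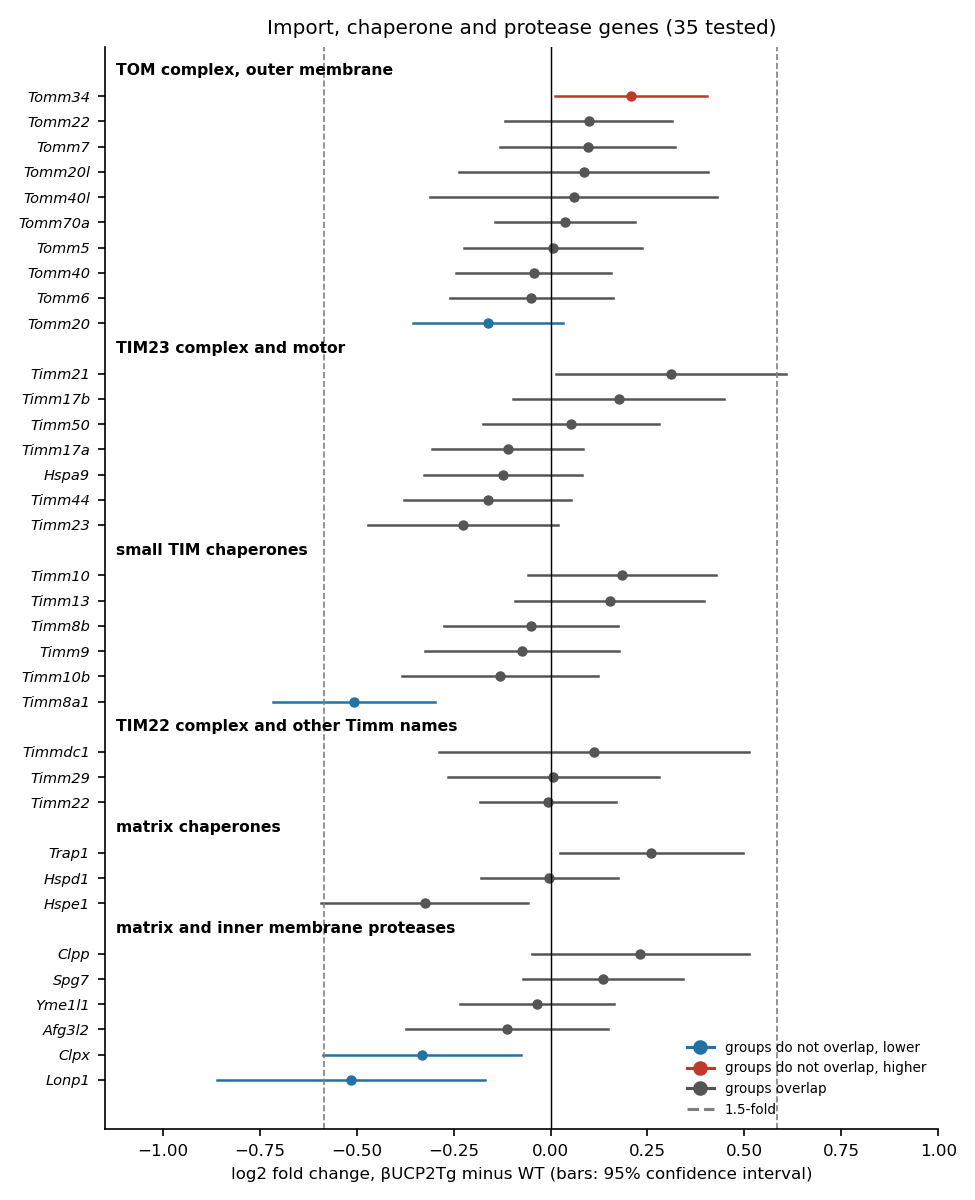
Difference between βUCP2Tg and WT islets (4 arrays each) for the 35 genes tested, by role. The x axis is the log2 fold change, bars are 95% confidence intervals, and dashed lines mark 1.5-fold. All points lie within the dashed lines, and the intervals of 5 genes reach past them.

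The 10 measured genes with Tomm names, most of them subunits of the outer membrane translocase, had a median difference of 0.048. *Tomm40* encodes the channel through which nearly all precursors pass. Its signal was 2.70, 2.70, 2.64 and 2.68 on βUCP2Tg arrays 1 to 4 and 2.80, 2.68, 2.59 and 2.82 on WT arrays 1 to 4, with a difference of -0.044 ± 0.087 (SE). The 2 groups overlapped. *Tomm20*, the receptor for precursors with a cleavable targeting sequence, read 3.78, 3.76, 3.79 and 3.76 on the βUCP2Tg arrays and 3.90, 3.87, 3.88 and 4.08 on the WT arrays. Every βUCP2Tg array was below every WT array, but the distance was small (-0.16 ± 0.084, adjusted p = 0.27), and WT 4 was well above the other WT arrays. *Tomm22*, the central receptor that joins the complex together, read 3.54, 3.64, 3.55 and 3.47 in βUCP2Tg and 3.52, 3.44, 3.29 and 3.56 in WT. Its groups overlapped, with a difference of 0.098 ± 0.094. *Tomm34*, a cytosolic co-chaperone that binds HSP70 and HSP90 and is not a subunit of the translocase, was the only TOM-named gene with an unadjusted p under 0.05. It read 3.23, 3.34, 3.36 and 3.28 in βUCP2Tg and 2.99, 3.08, 3.11 and 3.20 in WT. All βUCP2Tg arrays were above all WT arrays, by 0.21 ± 0.085 on average (adjusted p = 0.18). The other members, *Tomm5*, *Tomm6*, *Tomm7*, *Tomm20l*, *Tomm40l* and *Tomm70a*, had differences between -0.049 and 0.096 and overlapping groups. Among them *Tomm70a* encodes the receptor for carrier proteins, and its difference was 0.037.

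The TIM23 complex and its motor (7 genes) had a median difference of -0.11, and none of the 7 had groups that did not overlap. *Timm23*, the channel of the inner membrane, read 3.26, 3.30, 3.40 and 3.47 in βUCP2Tg and 3.62, 3.50, 3.43 and 3.79 in WT. Only βUCP2Tg 4 and WT 3 crossed, and the difference was -0.23 ± 0.11 (adjusted p = 0.22). *Timm44*, the tether that holds the motor to the channel, read 2.10, 2.15, 2.04 and 2.27 in βUCP2Tg and 2.38, 2.32, 2.16 and 2.35 in WT. Its groups overlapped, with a difference of -0.16 ± 0.094. *Hspa9*, the HSP70 of the motor, read 4.10, 4.09, 4.08 and 3.95 in βUCP2Tg and 4.23, 4.27, 4.06 and 4.15 in WT. The groups overlapped through WT 3, and the difference was -0.12 ± 0.089. *Timm21*, which links TIM23 with the TOM complex and with respiratory chain complexes, had the highest positive difference of the 35 genes. It read -1.13, -1.24, -1.17 and -1.27 in βUCP2Tg and -1.21, -1.72, -1.41 and -1.71 in WT. WT 1 lay among the βUCP2Tg arrays and the other WT arrays below all of them, for a mean difference of 0.31 ± 0.13 (adjusted p = 0.18). Without WT 1, the difference of *Timm21* was 0.41 with an adjusted p of 0.042, which was under the fold limit. That fit called 10.8% of all probes. The alternative channel partners *Timm17a* and *Timm17b* differed by -0.11 and 0.18, and *Timm50*, the receptor of the complex, by 0.053.

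The small TIM proteins carry hydrophobic precursors across the space between the membranes. Of the 6 measured genes, *Timm8a1* was the one farthest from zero. This X-linked gene encodes the partner of TIMM13, and loss of its human counterpart causes deafness-dystonia syndrome. It read 0.75, 0.77, 0.80 and 0.65 on βUCP2Tg arrays 1 to 4 and 1.19, 1.32, 1.12 and 1.36 on WT arrays 1 to 4. All βUCP2Tg arrays were well below all WT arrays, and the gap between the groups was wider than the range within either. The difference was -0.51 ± 0.091, with a 95% confidence interval of -0.71 to -0.30 and an adjusted p of 0.057. Leaving out single arrays moved the difference of *Timm8a1* only between -0.55 and -0.47. Its adjusted p then ran from 0.020 without WT 1 (10.8% of all probes called) and 0.045 without βUCP2Tg 4 (4.18%) to 0.20. With all 8 arrays, it was under 0.05 with the filter at all arrays (0.047), normexp (0.027), an intensity trend in limma (0.032) and averaged probes (0.046). In these fits the difference lay between -0.51 and -0.42, short of the fold limit. *Timm13*, its partner, differed by 0.15 in the other direction with overlapping groups, and *Timm8b*, its close relative, by -0.051. *Timm9* and *Timm10*, which together form the main small TIM complex, differed by -0.074 and 0.19, and *Timm10b* by -0.13. *Timm22*, the channel for carrier proteins, and *Timm29*, another subunit of its complex, differed by -0.0069 and 0.0069. *Timmdc1*, which despite its name acts in the assembly of respiratory complex I, differed by 0.11.

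Of the matrix chaperones, HSP60 (*Hspd1*) and HSP10 (*Hspe1*) form a barrel and its lid. Their genes lie head to head on mouse chromosome 1 and share a promoter. The RefSeq windows of assembly GRCm38.p6 (250 bases before to 50 after each start) are printed below. They were picked because the neighbours had unlike differences, -0.32 for *Hspe1* and -0.0027 for *Hspd1*. Neither gene was called, and the 2 were not tested against each other. The window of *Hspe1* at chr1:55087898-55088197 on the plus strand and one of 2 windows of *Hspd1*, at chr1:55087883-55088182 on the minus strand, share 285 bases. Capitals mark the only match in each to GAANNTTC, the core of a heat shock element, searched on both strands. In all, 7.86% of 32851 promoter windows hold it.
Hspe1: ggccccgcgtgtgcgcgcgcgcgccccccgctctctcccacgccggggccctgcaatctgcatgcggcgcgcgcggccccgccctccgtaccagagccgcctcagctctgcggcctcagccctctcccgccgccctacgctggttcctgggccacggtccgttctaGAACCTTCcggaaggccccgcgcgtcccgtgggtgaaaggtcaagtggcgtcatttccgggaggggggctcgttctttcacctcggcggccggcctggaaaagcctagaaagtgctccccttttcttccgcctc
Hspd1: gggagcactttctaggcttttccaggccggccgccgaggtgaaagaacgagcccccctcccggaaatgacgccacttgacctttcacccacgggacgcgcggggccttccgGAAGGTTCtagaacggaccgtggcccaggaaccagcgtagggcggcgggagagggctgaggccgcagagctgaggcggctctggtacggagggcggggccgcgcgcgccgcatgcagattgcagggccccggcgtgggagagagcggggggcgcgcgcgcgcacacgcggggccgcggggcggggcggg
The match in these windows is the same stretch read from either strand. The other RefSeq start of *Hspd1*, 95 bases from that of *Hspe1* where the first lies 216 bases from it, has a window at chr1:55088194-55088493 without a match. Among the other members with a window, *Timm9* was the only one with this motif (3 of 31 genes in all), and none held TGATGNAA, a core shared by ATF4 and CHOP elements, which 3.97% of all windows hold.

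*Hspd1* read 4.38, 4.35, 4.40 and 4.35 on βUCP2Tg arrays 1 to 4 and 4.44, 4.33, 4.34 and 4.37 on WT arrays 1 to 4. Its groups overlapped, with a difference of -0.0027 ± 0.077 and a 95% confidence interval of -0.18 to 0.17. *Hspe1* read 4.23, 4.23, 4.18 and 4.32 in βUCP2Tg and 4.29, 4.79, 4.58 and 4.60 in WT. The groups met at βUCP2Tg 4 and WT 1, and the other WT arrays were above all βUCP2Tg arrays, for a difference of -0.32 ± 0.12 (adjusted p = 0.14). Without WT 1, the difference of *Hspe1* was -0.42 with an adjusted p of 0.029, still under the fold limit. That fit called 10.8% of all probes. The other 2 probes of *Hspe1* gave -0.39 and -0.36, each with an unadjusted p under 0.05 in limma, and the other probe of *Hspd1* gave -0.030. Those 3 further probes, shown because they are separate readings of the same genes, were as follows.
Hspe1 probe A_66_P124339: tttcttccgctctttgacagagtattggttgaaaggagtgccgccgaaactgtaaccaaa
Hspe1 probe A_55_P1953063: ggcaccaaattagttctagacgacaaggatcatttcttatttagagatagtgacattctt
Hspd1 probe A_55_P2846649: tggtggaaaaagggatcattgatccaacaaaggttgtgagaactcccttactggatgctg
RefSeq names 6 pseudogenes after *Hspe1* and 5 after *Hspd1*, and whether these probes also bind their transcripts was not tested. *Trap1*, the HSP90 of mitochondria, read 0.10, 0.30, 0.45 and 0.38 in βUCP2Tg and -0.056, 0.047, 0.082 and 0.13 in WT. It was higher in βUCP2Tg by 0.26 ± 0.10 (adjusted p = 0.17), and only βUCP2Tg 1 and WT 4 crossed.

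Among the 6 proteases and their partners, *Lonp1* and *Clpx* were lower in βUCP2Tg without overlap, while *Clpp* and *Spg7* had positive differences. *Lonp1* encodes the main matrix protease, which degrades oxidized proteins. It read 4.65, 4.66, 4.64 and 4.90 on βUCP2Tg arrays 1 to 4 and 5.07, 5.65, 5.10 and 5.08 on WT arrays 1 to 4. Most arrays sat in 2 tight groups, with βUCP2Tg 4 above its group and WT 2 far above the rest of WT. The difference was -0.52 ± 0.15 (adjusted p = 0.11). Without WT 2 it was -0.37 (adjusted p = 0.18), and without βUCP2Tg 4 it was -0.58 (adjusted p = 0.074). *Clpx* encodes the unfoldase that feeds the protease chamber formed by CLPP. It read 2.56, 2.67, 2.70 and 2.69 in βUCP2Tg and 2.72, 3.09, 3.14 and 2.98 in WT. WT 1 stood just above the βUCP2Tg arrays and the other WT arrays well above them (-0.33 ± 0.11, adjusted p = 0.13). Without WT 1 the difference of *Clpx* was -0.42, with an adjusted p of 0.027 and still under the fold limit. That fit called 10.8% of all probes. *Clpp* read 3.25, 3.28, 3.15 and 3.02 in βUCP2Tg and 3.11, 2.90, 2.68 and 3.08 in WT. Its groups overlapped, with a difference of 0.23 ± 0.12 (adjusted p = 0.27). *Yme1l1*, the inner membrane protease facing the intermembrane space, read 1.61, 1.82, 1.68 and 1.69 in βUCP2Tg and 1.81, 1.70, 1.66 and 1.78 in WT. It did not separate the groups (-0.035 ± 0.087). *Afg3l2* and *Spg7*, which form the protease facing the matrix, differed by -0.11 and 0.14, both with overlap. A second, dimmer probe of each did not overlap between the groups, at -0.28 for *Afg3l2* (adjusted p = 0.15) and 0.22 for *Spg7* (adjusted p = 0.14).

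**Figure D2:**
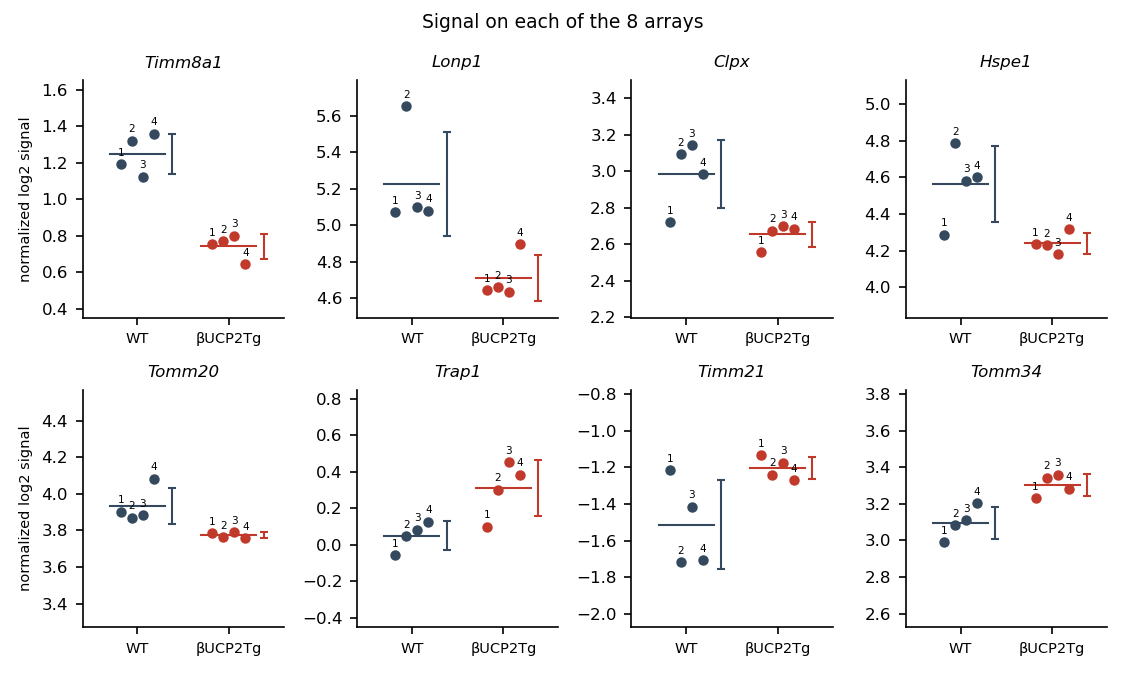
Normalized log2 signal on each array (numbered points) for the 8 genes with an unadjusted p under 0.05 or without overlap between the groups. Lines are means and bars beside them SD (n = 4), and every panel spans the same range of log2 units. WT 1 lies next to the βUCP2Tg arrays for *Clpx*, *Hspe1* and *Timm21*, and WT 2 stands above the other WT arrays for *Lonp1*.

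In 3 of the lower genes, arrays that stood apart in the hypoxia response genes came close to the other genotype. For *Hspe1* and *Clpx*, WT 1 was the lowest WT array by a clear margin, and for *Hspe1* and *Lonp1*, βUCP2Tg 4 was the highest βUCP2Tg array. *Timm8a1* and *Tomm20* did not show this, since βUCP2Tg 4 was the lowest array for both. Over the 35 genes, WT 1 was the lowest WT array for 8, compared with 28.1% of all probes. βUCP2Tg 4 was the highest βUCP2Tg array for 5 of the 35, compared with 34.1% of all probes. The hypoxia means were 2.12 on WT 1 and 2.61 on βUCP2Tg 4, between the 1.30 to 1.35 of the other βUCP2Tg arrays and the 3.03 to 3.05 of the other WT arrays. The part of the hypoxia genes in these results was not tested. The acinar mean followed another order, as it was lowest in WT on WT 4 (-0.61) and highest in βUCP2Tg on βUCP2Tg 4 (2.93), and its part was not tested either.

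Partner genes did not always differ alike. The pairs below were picked after their values were seen, so the differences between partners are a description without a test, and only the shift of a pair between arrays can be read, not the distance between its genes. *Hspe1* minus *Hspd1* was -0.14, -0.12, -0.22 and -0.028 on βUCP2Tg arrays 1 to 4 and -0.16, 0.46, 0.24 and 0.23 on WT arrays 1 to 4. The lid thus shifted against the barrel by -0.32 on average, with WT 1 among the βUCP2Tg arrays. *Clpx* minus *Clpp* was -0.69, -0.61, -0.45 and -0.33 in βUCP2Tg and -0.39, 0.19, 0.47 and -0.10 in WT. Its shift of -0.56 was the widest of the pairs, again with WT 1 among the βUCP2Tg arrays. *Timm8a1* minus *Timm8b* was -3.42, -3.42, -3.35 and -3.47 in βUCP2Tg and -3.01, -2.82, -2.95 and -3.06 in WT, a shift of -0.46 without overlap. The groups also stayed apart for *Tomm20* minus *Tomm22* (shift -0.26), *Timm17a* minus *Timm17b* (-0.29), *Afg3l2* minus *Spg7* (-0.25) and *Timm10* minus *Timm9* (0.26). Picking the pairs by their values favours such separation, and how often other gene pairs of the array stay apart was not counted.

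**Figure D3:**
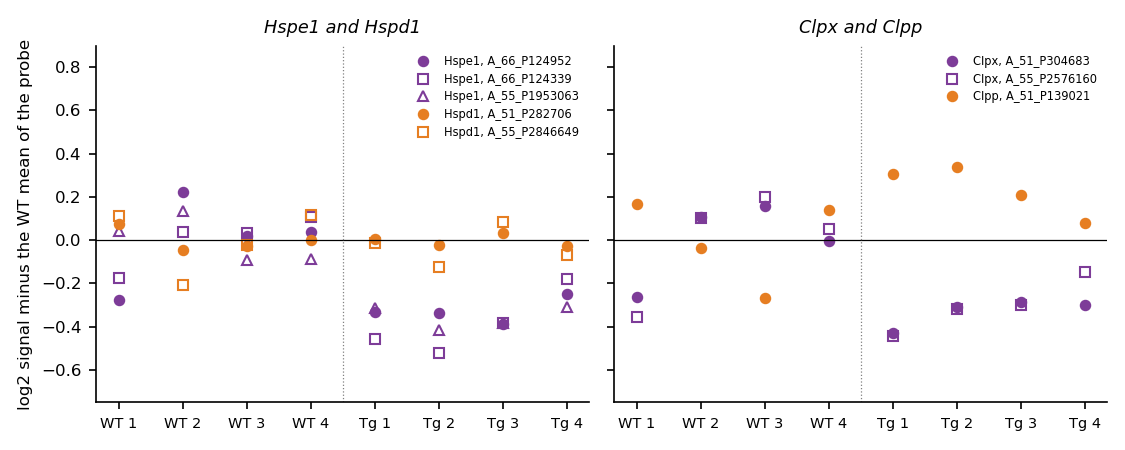
Signal of each probe of *Hspe1* and *Hspd1* (left) and of *Clpx* and *Clpp* (right) on each array, as log2 signal minus the mean of the probe over the WT arrays. Tg stands for βUCP2Tg and filled points mark the brightest probe of a gene. The 3 *Hspe1* probes lie below zero on all βUCP2Tg arrays, while the *Hspd1* probes lie on both sides of zero.

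For 20 genes a further probe could be tested, which checks the reading of the brightest one. All probes lay on one side of zero for 16 of the 20 genes, and for *Timm10b*, *Timm44*, *Tomm40l* and *Tomm5* they did not. The probes of *Timm44* differed most in sign, with the brightest at -0.16 and another at 0.27. *Clpx* gave -0.33 and -0.30 with its 2 probes, and *Tomm20* gave -0.16, -0.15 and -0.16 with 3, of which the brightest and one other share 40 of their 60 bases. Probes of one gene also differed in size. *Tomm6* differed by -0.049 at its brightest probe and by -0.76 at another, and *Timm23* by -0.23 and -0.53. For *Timm9*, the 2 brighter probes gave -0.074 and -0.022, and the 2 others -0.56 and -0.50. On the first of those 2 others, the arrays read -0.99, -1.06, -1.04 and -0.52 in βUCP2Tg and -0.31, -0.12, -0.27 and -0.66 in WT, so that βUCP2Tg 4 and WT 4 crossed. None of the 29 further probes was called, with a smallest adjusted p of 0.088. *Timm8a1* and *Lonp1* each had a single tested probe, so their differences could not be checked in this way.

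**Figure D4:**
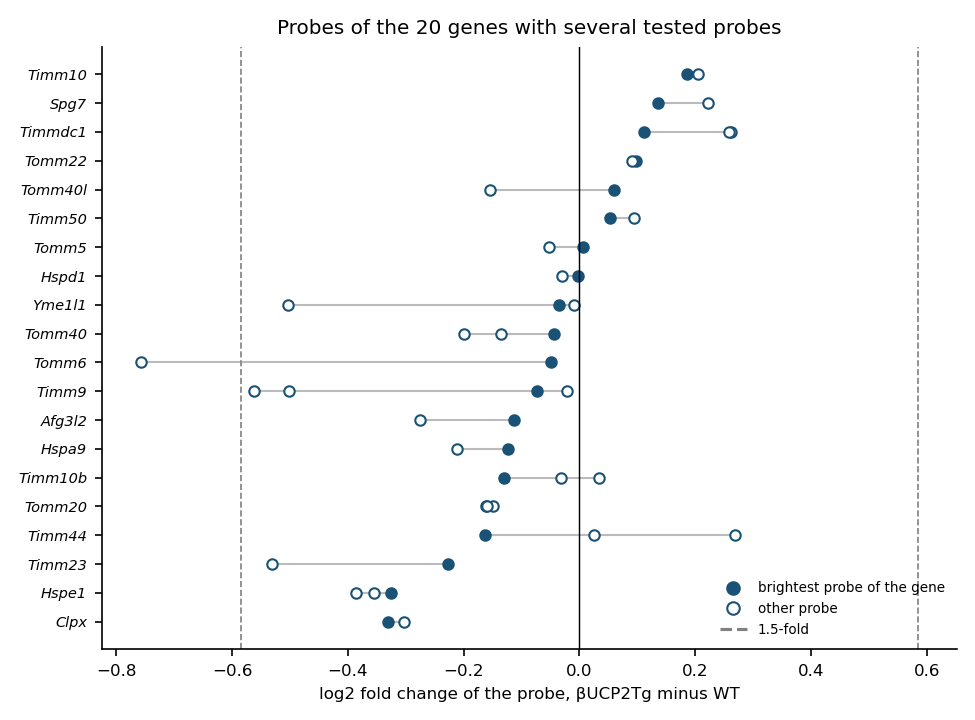
Log2 fold change (βUCP2Tg minus WT, 4 arrays each) of every tested probe for the 20 genes with several. Filled points are the brightest probe and dashed lines mark 1.5-fold. The probes of *Hspe1*, *Clpx* and *Tomm20* lie close together, and those of *Tomm6*, *Timm9* and *Yme1l1* are spread.

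At their brightest probes, most of the 35 genes varied more among WT than among βUCP2Tg samples, as most probes of the array did. The SD was larger in WT for 31 of the 35 genes (88.6%), compared with 71.1% of all probes, and the median SD was 0.071 in βUCP2Tg and 0.15 in WT. At their other tested probes it was larger in WT for 18 of 29 (62.1%), below the share of all probes. Among further import genes it was larger in WT for 81.8%, and among further proteases and prohibitins for 90.9%. The WT arrays were also split. WT 1 and WT 4 were both above WT 2 and WT 3 for 22 of the 35 genes (62.9%) and both below for 4 (11.4%), compared with 31.1% and 24.8% of all probes. The split was not limited to these genes. WT 1 and WT 4 were both above for 17 of 22 further import genes, 9 of 11 further proteases and prohibitins, 6 of 10 β-cell markers and 6 of 9 macrophage markers, and both below for 20 of 21 acinar markers. At the other tested probes of the members they were both above for 12 of 29 (41.4%). The part of these markers in the spread of the members was not tested. *Clpp*, *Tomm7* and *Timm10* were among the 22, and the 4 with the reverse order were *Lonp1*, *Clpx*, *Tomm6* and *Tomm20l*. WT 4 was the highest WT array for 16 genes, WT 3 the lowest for 18, and βUCP2Tg 4 the lowest of its group for 16. This split was noticed in the data and the labels give no batch for it.

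Other genes of the pathway were listed by role. None of the genes in these lists was called. Of 22 further import genes, such as motor co-chaperones, sorting and assembly factors and processing peptidases, 3 had an unadjusted p under 0.05 in the higher direction (9.99% of all probes) and 1 in the lower (15.2% of all probes), and the median difference was 0.084. *Oxa1l*, which inserts proteins into the inner membrane from the matrix, read 2.33, 2.42, 2.35 and 2.12 in βUCP2Tg and 2.10, 2.07, 1.84 and 2.11 in WT, a difference of 0.27 (adjusted p = 0.16), and the lowest βUCP2Tg array was just above the highest WT array. *Mtx3*, a metaxin of the outer membrane, differed by 0.37 (adjusted p = 0.17), and its groups overlapped. Of 11 further proteases and prohibitins, 3 were higher (9.99% of all probes) and none lower at that p, with a median of 0.082. The 2 with the smallest p were *Lactb*, a filament-forming protein (0.31, adjusted p = 0.14), and *Clpb*, a disaggregase of the intermembrane space (0.33, adjusted p = 0.14), and for both all βUCP2Tg arrays were above all WT arrays (5.25% of all probes).

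The regulators tied to the mitochondrial unfolded protein response, 8 transcription factors and the deacetylase *Sirt3*, differed in direction. Of these 9 genes, 3 were lower at an unadjusted p under 0.05 (15.2% of all probes) and none higher, with a median of -0.045. *Atf4*, the translation-controlled factor of the integrated stress response, read 7.83, 7.87, 7.76 and 7.60 in βUCP2Tg and 7.98, 8.33, 8.13 and 8.13 in WT (-0.37, adjusted p = 0.10). *Cebpb* differed by -0.47 (adjusted p = 0.12), and the last of the 3, *Ddit3* (CHOP), which is named because it completes the count, by -0.58 (adjusted p = 0.13). The groups did not overlap for any of the 3 (7.17% of all probes were lower without overlap). WT 1 was the lowest WT array for all 3, at 7.98 for *Atf4* against 8.13 to 8.33, 4.13 for *Cebpb* against 4.41 to 4.85, and 3.01 for *Ddit3* against 3.32 or more, as in the mean of the hypoxia response genes. Unlike in that mean, βUCP2Tg 4 was the lowest βUCP2Tg array for all 3, at 7.60, 3.90 and 2.82. Over the 9 genes, WT 1 was the lowest WT array for 44.4%, compared with 28.1% of all probes. βUCP2Tg 4 was the highest βUCP2Tg array for 11.1%, compared with 34.1% of all probes. The part of the hypoxia genes in this result was not tested. *Atf5*, the factor most closely tied to the mitochondrial response in mammals, differed by 0.097, a value picked out after it was seen.

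The cytosolic heat shock list, made up of HSP70 and HSP90 proteins with their co-chaperones, 2 small heat shock proteins and subunits of the cytosolic chaperonin, was below zero for all 16 genes, compared with 53.2% of all probes, with a median of -0.43 beside -0.0027 for the mitochondrial members. At an unadjusted p under 0.05, 5 of the 16 were lower (15.2% of all probes). *Hsp90aa1*, the inducible HSP90, read 5.22, 5.02, 4.90 and 5.03 in βUCP2Tg and 5.42, 5.76, 5.64 and 5.67 in WT (-0.58, adjusted p = 0.063). *Hspa4*, a nucleotide exchange factor for HSP70, differed by -0.39 (adjusted p = 0.087). These 2 of the 16 genes (12.5%) had groups that did not overlap. Of all probes, 12.4% did not overlap in either direction, and 7.17% were lower without overlap. The list moved with the arrays that stood apart in the hypoxia response genes. WT 1 was the lowest WT array for 15 of the 16 heat shock genes and βUCP2Tg 4 the highest βUCP2Tg array for 9, and both held for 9 (56.2%), compared with 15.2% of all probes and 14 of 18 hypoxia genes. In *Hspa1b*, an inducible HSP70 picked after its values were seen, βUCP2Tg 4 read 3.17 against 0.93 to 1.39 on the other βUCP2Tg arrays, and WT 1 read 1.79 against 2.82 to 3.33 on the other WT arrays. The part of the hypoxia genes in the heat shock result was not tested. Without WT 1, 9 of the 58 genes tested in these 4 lists were called, as were 10.8% of all probes tested.

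**Figure D5:**
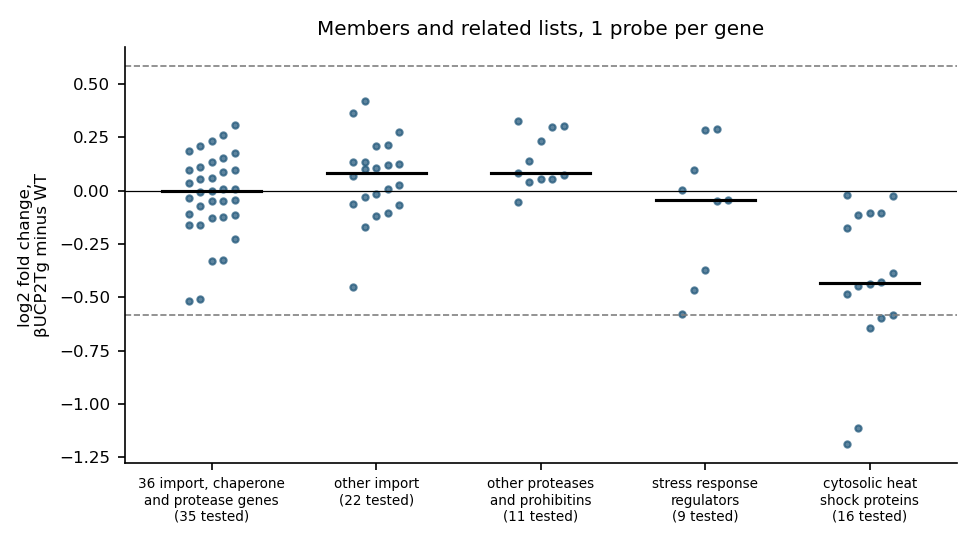
Log2 fold change (βUCP2Tg minus WT) of the 35 genes and of the genes in 4 related lists, 1 probe per gene. Black lines are medians and dashed lines mark 1.5-fold. All 16 cytosolic heat shock genes lie below zero, while the other lists spread on both sides of it.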

How the data were processed

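The authors' scanner files, made with Agilent Feature Extraction (10.7.3.1 in the file headers, 9.1 in the submitters' processing notes), give for each spot a background-subtracted intensity, not in log units. The authors' deposited GeneSpring table gives normalized log2 values, which chose the members and 1 probe per gene. Its fold changes and p-values, which are the authors' own comparison, were not used. Control and outlier spots were left out, the 75th percentile of log2 intensity was subtracted from each array, and the spots of a probe were averaged. Probes well above background (at least 50% of spots) on at least 4 of 8 arrays were tested with limma 3.58.1 in R 4.3.3 (lmFit and eBayes), which was tested on simulated data. Values on every array are given for members with an unadjusted p under 0.05 or groups that do not overlap, and for a list of core members. Of the other lists, the 2 genes with the smallest p are named. Members, lists and alternatives were chosen with earlier results of these data known. The number of arrays limits the precision. The array annotation uses mm9, and promoters come from RefSeq (GRCm38.p6), with windows for 31 of the 36 genes. Version 1.17.8 of data.table read the files, and matplotlib 3.10.9 with Python 3.11.15 made the plots.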

Additional observations from a re-analysis of the deposited data

Results flagged for a closer look

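Among the 16 genes with values on every array, 4 of the 32 groups of 4 arrays held 1 array whose gap to the nearest of the others divided by the range of its group exceeded Dixon's 95% critical value, which chance gives in about 1 of 20 groups, or 1.6 here. For *Lonp1*, WT 2 stood at 5.65 against 5.07 to 5.10 on the other WT arrays, a gap of 0.95 of the range. Also for *Lonp1*, βUCP2Tg 4 stood at 4.90 against 4.64 to 4.66, a gap of 0.907 of the range. For *Hspa9*, βUCP2Tg 4 stood at 3.95 against 4.08 to 4.10 (0.875 of the range). For *Tomm20*, WT 4 stood at 4.08 against 3.87 to 3.90 (0.846 of the range), and without WT 4 the difference of *Tomm20* was -0.11.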

How the results depend on the processing

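No member was called higher under any of 17 alternatives or without any single array. One was called lower under 1 alternative: without βUCP2Tg 4 and WT 1 together, arrays chosen because earlier results showed them apart in the hypoxia genes, the count was 1, *Lonp1* at -0.63 with an adjusted p of 0.040. In that fit 5486 probes were called (16% of those tested, against 1 of 35 members). Calls over all probes also moved from 145 to 3759 without WT 1, 1467 without βUCP2Tg 4, and 8 without any one of βUCP2Tg 1, 2 or 3. The median of the 35 genes stayed between -0.016 and 0.052 under the alternatives and between -0.031 and 0.021 without single arrays. Genes called in the other 4 lists numbered, of 58, 1 with normexp (2.31% of all probes called), 1 with the methods' t-test without adjustment (8.01%), 1 with averaged probes per gene (165 genes called in all), 11 without both arrays (16%), and 0 to 9 without single arrays (0.0228% to 10.8%). The sign of *Hspd1* turned to 0.088 with quantile normalization, 0.031 and 0.0060 with the median and the 75th percentile over probes measured everywhere, 0.0088 with normexp, 0.014 with the deposited values, 0.0023 with outlier spots kept and 0.029 without both arrays, and ran from -0.018 to 0.021 without single arrays. The sign also turned for *Tomm40* with quantile normalization (0.00077), *Yme1l1* with normexp (0.052) and *Timm44* with the mean of its probes (0.044). The cause was not tested. The other genes among the 16 with values on every array kept their sign under all alternatives and without any single array. Deviations correlated at 0.44, -0.047, -0.0086 and -0.24 for replicate numbers 1 to 4, and 1 of 4 βUCP2Tg arrays correlated best with its own number. These values show no clear pairing by replicate number, and they cannot exclude one. With the replicate block, 14 probes and 0 members were called, and the adjusted p of *Timm8a1* was 0.14.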
